A study of Mus musculus with 8 samples.

Results

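Mutant and wild-type blood stem and progenitor cells that had shared the marrow of the same recipients were set against each other. Both were LSK cells, marrow cells without lineage markers that carry c-Kit and Sca-1, among which the blood stem cells and early progenitors lie. The tested cells, called Double_mutant, carried the CD45.2 form of the leukocyte antigen CD45, the retroviral truncation mutant RUNX1S291fs and a Cre-ERT deletion of both floxed Ezh2 alleles. They were taken at month 4 after transplantation, before myelodysplastic syndrome (MDS). The wild-type cells, called CD45.1_in_double_mutant or competitor cells, came from the CD45.1 marrow that had been given to the same lethally irradiated recipients to keep them alive. They were also taken at month 4, and the labels give them no virus and no Cre. All mice are labelled C57BL/6. The 2 arrays were chosen by their titles from a series of 8 arrays, 1 array for each of 8 groups.

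The other arrays are used beside this pair. RUNX1_mutant had RUNX1S291fs with intact Ezh2, and Ezh2_deleted had the deletion with an empty virus. WT was CD45.2 cells with intact Ezh2 and the empty virus, and CD45.1_in_RUNX1_mutant was competitor cells from RUNX1S291fs recipients. These were month 4 samples. Double_MDS and Double_MDS_ML were double-mutant cells of a moribund mouse each, the first with MDS and the second with MDS and myeloid leukemia. The month 4 CD45.2 samples were pools of 2 to 4 mice, and the labels give no pool size for the CD45.1 samples. With 1 array a group the pair has no replicate, so its differences carry no test. The double-mutant and WT arrays lay on slide 1 and the competitor array on slide 2. Within the pair, slide, donor strain and virus cannot be told apart from genotype.

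RUNX1 is a transcription factor that pairs with CBF-beta and is needed for lymphoid and platelet development, and truncations such as RUNX1S291fs occur in human MDS. EZH2 is the methyltransferase of Polycomb repressive complex PRC2, which marks histone H3 at lysine 27 and keeps developmental genes silent. In the LSK fraction most stem cells are quiescent, while their progeny begin to express genes of the myeloid, lymphoid or megakaryocytic and erythroid lineages.

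Levels are log2 signal with the 75th percentile of each array set to 0, and differences are Double_mutant minus CD45.1_in_double_mutant on the log2 scale. Of 20660 genes with a named probe, 13871 were well above background on at least 1 of the 2 arrays. The remaining genes were dim on both. On both arrays 12630 genes were measured, 761 on the double-mutant array only and 480 on the competitor array only. For a gene dim on 1 array, that array's lowest level well above background took its place, and the difference is then a bound, written "at least".

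Double-mutant cells held far more RNA of neutrophil, mast cell and eosinophil genes than the competitor cells beside them, and less of B, T and early lymphoid genes, Hox genes and stem cell genes. In all, 1423 of the 13871 genes (10.3%) were higher by 2-fold or more and 1314 (9.47%) lower by as much, 19.7% together, while 11134 lay within 2-fold. At 16-fold or more, 76 genes were higher and 32 lower. The median over all genes was 0.07. Between the WT and competitor arrays, both of wild-type cells and on the same slides as the pair, 1011 of 13979 genes (7.23%) were at least 2-fold apart, of which 369 (2.64%) were higher and 642 (4.59%) lower on WT. For Double_mutant minus WT, within slide 1, 18.6% of 14145 genes were at least 2-fold apart, 10.6% higher and 7.96% lower. These 3 pairs share arrays. With normexp background correction, which pulls dim values together, the counts of the pair were 825 higher and 717 lower.

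**Figure D1:**
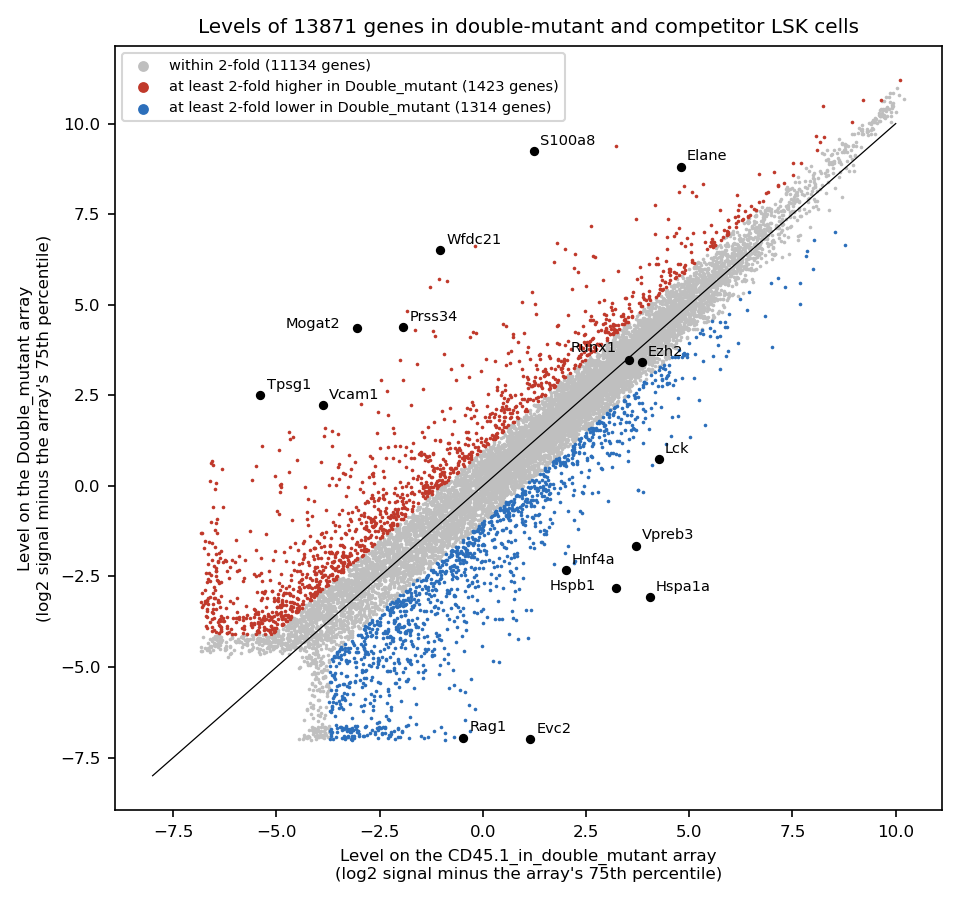
Level of each of the 13871 genes on the Double_mutant array (vertical axis) against the CD45.1_in_double_mutant array (horizontal axis), both as log2 signal with the 75th percentile at 0, with the line of equal levels. Red points are the 1423 genes at least 2-fold higher in double-mutant cells and blue points the 1314 at least 2-fold lower, dim values being plotted as measured. Black points are genes named in the text.

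The labels were checked first. Ezh2 was 3.42 in double-mutant cells and 3.85 in competitor cells, a difference of -0.42. The position of the probe against the deleted exons was not known, so the level checks nothing about the deletion. Runx1 was 3.47 in double-mutant and 3.55 in competitor cells, and whether the probe reads the retroviral transcript was not known either. Xist, the RNA that coats the inactive X chromosome, differed by -0.10, and 6 Y-linked genes were dim on both arrays.

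Genes of the sort and its subsets were all measured on both arrays. Kit, the c-Kit receptor of the sort, was 4.45 in double-mutant and 4.72 in competitor cells. Ly6a, which encodes Sca-1, was 3.17 in double-mutant and 4.14 in competitor cells. Ptprc, which encodes CD45, was 1.08 in double-mutant and 2.20 in competitor cells, a difference of -1.12. The 3 largest differences among the 13 markers were those of Thy1 (-3.51), the receptor gene Flt3 (-2.52) and the costimulatory receptor gene Cd27 (-2.12), all of them lower in double-mutant cells. Cd34 (-0.29), Slamf1 (-0.47), the co-receptor gene Eng (-0.85), Cd48 (0.02), Cd244a (0.10), Cd9 (0.24) and Ly6e (0.50) lay within 2-fold. The sort genes were thus present on both arrays, with the lymphoid-primed marker Flt3 lower on the double-mutant one.

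Late neutrophil genes, which encode the antimicrobial and granule proteins of maturing neutrophils, had the highest median of the 44 lists at 4.92. Of 19 measured members 17 were at least 2-fold higher in double-mutant cells, against 10.3% of all genes. S100a8, a subunit of calprotectin, which binds calcium and zinc, was 9.23 in double-mutant cells against 1.23 in competitor cells, or 257-fold. Its partner S100a9 was 9.37 in double-mutant and 3.22 in competitor cells. Wfdc21 was 6.52 in double-mutant and -1.04 in competitor cells, and the chitinase-like gene Chil3 was 6.63 in double-mutant and -0.19 in competitor cells. The cathelicidin gene Camp was 5.66 in double-mutant and -0.87 in competitor cells. The stefin gene Stfa2 was 1.49 in double-mutant cells and dim in competitor cells, hence at least 6.18 higher. Lyz2, a lysozyme gene, was 1.46 in double-mutant and 1.55 in competitor cells.

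All 19 late neutrophil genes were well above background on the double-mutant array and 13 on the competitor array. Their mean level was 3.19 in Double_mutant, -1.60 in WT and -1.64 in CD45.1_in_double_mutant. It was 0.81 in CD45.1_in_RUNX1_mutant, 0.16 in RUNX1_mutant, 1.57 in Ezh2_deleted, 2.74 in Double_MDS and -3.04 in Double_MDS_ML. The wild-type arrays therefore differed among themselves by more than 2 units, and the double-mutant level lay above each of them. Whether mature cells in the sorted samples contribute was not tested. In bulk RNA, more cells of a type and more RNA per cell cannot be told apart.

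Myeloid progenitor genes, which encode primary granule enzymes and the factors and receptors of granulocyte and monocyte precursors, had a median of 1.52. Here 14 of 20 were at least 2-fold higher and 1 was lower by as much. Cebpe, a C/EBP factor of granulocyte maturation, was 6.69 in double-mutant and 1.78 in competitor cells. The neutrophil elastase gene Elane was 8.81 in double-mutant and 4.80 in competitor cells, or 16.2-fold. Fcgr3, a receptor for IgG, was 3.34 in double-mutant and -0.51 in competitor cells. Ms4a3, a marker of granulocyte and monocyte progenitors, was 8.29 in double-mutant and 4.87 in competitor cells. Against the median lay the granule gene Nkg7 (4.40 in double-mutant and 5.92 in competitor cells) and Cebpa, another C/EBP factor (1.49 in double-mutant and 1.86 in competitor cells). Their mean level was 5.86 in Double_mutant, 3.62 in WT and 4.18 in CD45.1_in_double_mutant, but 5.39 in CD45.1_in_RUNX1_mutant, so it varied widely among wild-type arrays as well.

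Mast cell and basophil genes had a median of 2.74, with 13 of 18 at least 2-fold higher and 0 lower. With normexp the median was 1.82. Prss34, a basophil and mast cell protease, was 4.38 in double-mutant and -1.93 in competitor cells. The chymase genes Mcpt4 and Cma1 were 2.92 and 2.05 in double-mutant cells and -2.48 and -2.53 in competitor cells. Tpsb2, a tryptase, was 3.37 in double-mutant and -1.59 in competitor cells, and its relative Tpsg1 was 2.50 in double-mutant cells and dim in competitor cells, or at least 193-fold higher. Il1rl1, the receptor for interleukin-33 on mast cells, was 3.63 in double-mutant and -0.95 in competitor cells. The mast cell receptor gene Kit (-0.27) and the factor gene Gata2 (-0.42) were not among the high members. Both are expressed in LSK cells in general. The mean level was 2.94 in Double_mutant, against 0.23 in CD45.1_in_double_mutant, 0.50 in CD45.1_in_RUNX1_mutant and -0.54 in WT.

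Eosinophil genes gave a median of 3.23 and 7 of 9 at least 2-fold higher. The eosinophil ribonuclease gene Ear2 was 3.49 in double-mutant cells, 5.48 above its competitor level, and Ear1 was 1.52 in double-mutant and -3.66 in competitor cells. Prg3, a granule proteoglycan, was 0.03 in double-mutant and -3.73 in competitor cells, and the ribonuclease gene Ear6 was 1.07 in double-mutant and -2.30 in competitor cells. Members of the ribonuclease family are near-identical in sequence, and their probes may share signal. Of these differences a share also stood between wild-type cells, as the list median was 1.14 for WT minus competitor and 2.09 for Double_mutant minus WT. The mean level of the list was 1.098 in Double_mutant, 0.96 in RUNX1_mutant and 1.13 in Double_MDS. It was -0.80 in WT, -0.11 in CD45.1_in_RUNX1_mutant, -1.93 in CD45.1_in_double_mutant, -0.37 in Ezh2_deleted and -3.01 in Double_MDS_ML. The competitor array was thus the lowest of the wild-type arrays for these genes, and RUNX1_mutant stood close to Double_mutant. All 9 genes were above all 3 wild-type arrays in Double_mutant.

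Monocyte and macrophage genes had a median of 1.07, with 8 of 16 at least 2-fold higher and 1 lower, and 0.70 with normexp. Vcam1, an adhesion molecule of stroma and macrophages, was 2.23 in double-mutant and -3.88 in competitor cells, or 68.8-fold, and lay between -3.88 and -2.04 on all 7 other arrays. Its 2 probes gave 3.54 and 6.10. F13a1, coagulation factor XIII of monocytes, was 7.75 in double-mutant and 4.16 in competitor cells. Cd14, the lipopolysaccharide co-receptor, was 3.18 in double-mutant and -0.05 in competitor cells, and the macrophage receptor gene Adgre1 was -0.27 in double-mutant and -3.32 in competitor cells. The factor gene Klf4, also an immediate early gene, was 1.69 in double-mutant and 5.38 in competitor cells. Toll-like receptor genes followed with a median of 0.64 and 5 of 18 at least 2-fold higher. Tlr1 was -0.37 in double-mutant and -4.22 in competitor cells, Tlr4 0.84 in double-mutant and -1.50 in competitor cells, and Tlr6 1.27 in double-mutant and -1.03 in competitor cells. The kinase gene Irak1 (-0.34) and the adaptor gene Traf6 (-0.56) of the same pathway lay within 2-fold.

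**Figure D2:**
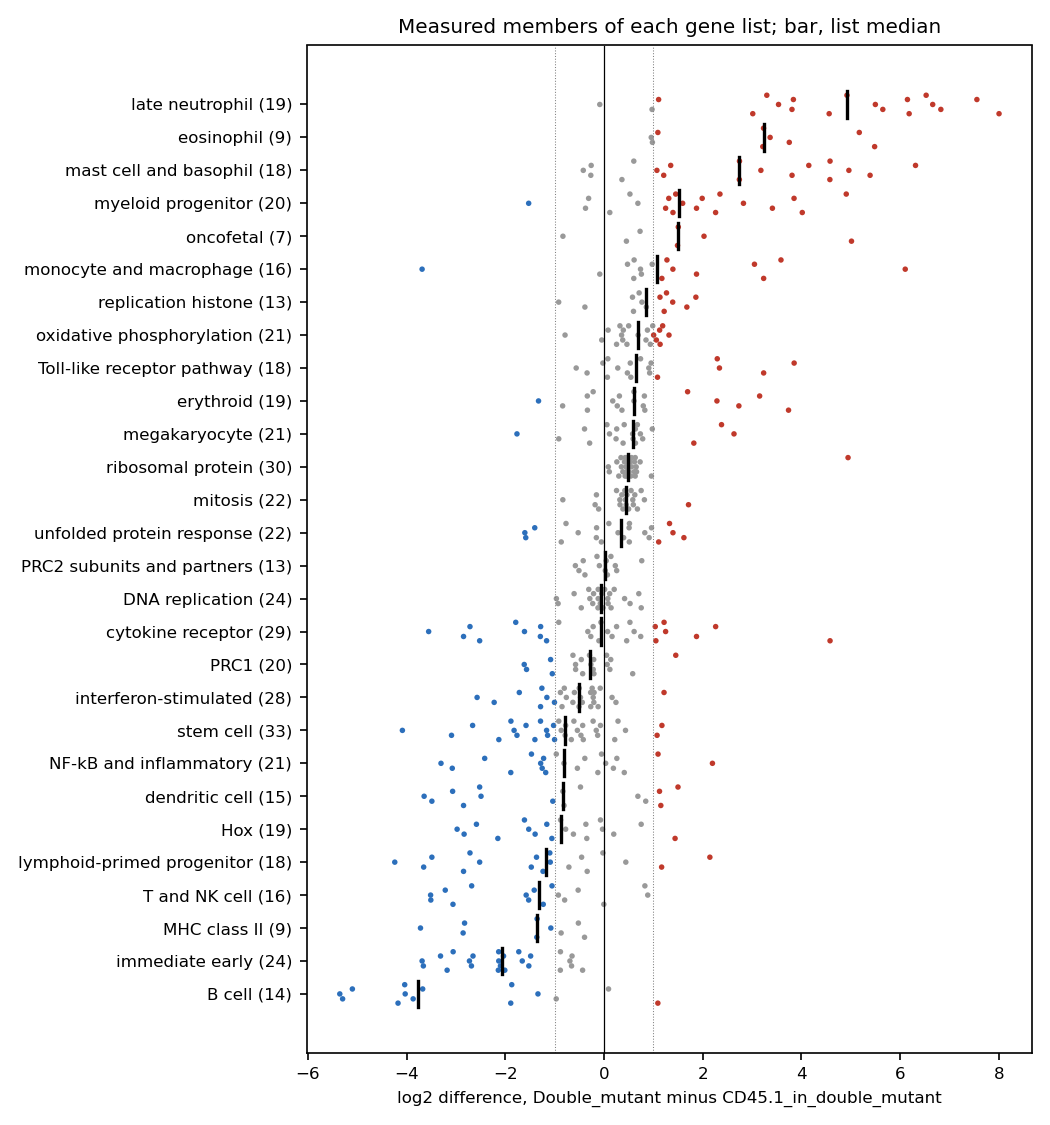
log2 difference, Double_mutant minus CD45.1_in_double_mutant, of each measured member of 28 gene lists (the number measured stands beside the name), with the list median as a black bar and dotted lines at 2-fold. Red and blue points are members at least 2-fold higher and lower in double-mutant cells, and the medians run from 4.92 for late neutrophil to -3.77 for B cell genes.

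Erythroid and megakaryocyte genes were less far apart. Erythroid genes had a median of 0.61 (0.31 with normexp), with 5 of 19 at least 2-fold higher, and of their high members Alas2 was dim in competitor cells. The alpha-globin gene Hba-a1 was 5.01 in double-mutant and 1.27 in competitor cells, Alas2, which makes heme, at least 3.15 higher, the anion exchanger gene Slc4a1 2.73 higher and the factor gene Klf1 2.29 higher. The carbonic anhydrase gene Car2 (-1.33) was lower, and Zfpm1 (-0.84), a partner of GATA1, lay within 2-fold. Megakaryocyte genes had a median of 0.58 (0.37 with normexp), and 17 of 21 lay within 2-fold. The platelet receptor genes Treml1 and Clec1b were 4.42 and -0.33 in double-mutant cells and 1.79 and -2.71 in competitor cells. Vwf, the von Willebrand factor gene, was 2.12 in double-mutant and 3.89 in competitor cells.

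B cell genes had the lowest median of all lists at -3.77, with 11 of 14 at least 2-fold lower in double-mutant cells, against 9.47% of all genes, and 1 higher. With normexp the median was -1.98. Vpreb3, expressed in B cell precursors, and Igll1, a part of the surrogate light chain that pre-B cells display, were -1.65 and -4.21 in double-mutant cells and 3.70 and 1.09 in competitor cells. Pou2af1, a B cell co-activator, was -4.24 in double-mutant and 0.86 in competitor cells. Cd22 (1.09) and Cd79b (0.09) were the members above 0. Much of this gap also stood between wild-type cells: the list median was -2.54 for WT minus competitor and -0.81 for Double_mutant minus WT, and Ms4a1 and Pax5 were dim on both arrays of the pair. The mean level was -2.37 in Double_mutant, -1.62 in WT, -1.64 in CD45.1_in_RUNX1_mutant and 0.72 in CD45.1_in_double_mutant. The competitor array was thus the highest of the wild-type arrays for these genes.

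The earlier lymphoid genes stood differently. Lymphoid-primed progenitor genes had a median of -1.17, with 11 of 18 at least 2-fold lower and 2 higher, and their medians were -0.04 for WT minus competitor and -1.09 for Double_mutant minus WT. Rag1, a subunit of the antigen receptor recombinase, was dim in double-mutant cells and -0.48 in competitor cells, hence at least 4.24 lower on the probe kept. Its 2 probes gave -6.47 and -2.61 as measured, so the size is uncertain. The chemokine receptor gene Ccr7 was -4.16 in double-mutant and -0.50 in competitor cells, and Ccr9, a homing receptor to the thymus, -2.47 in double-mutant and 0.38 in competitor cells. Ly6d, which marks lymphoid progenitors turning to the B lineage, was -1.18 in double-mutant and 2.31 in competitor cells. Notch1 had probes at 2.15 and -3.33 and is uncertain.

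T and NK cell genes had a median of -1.32, with 10 of 16 at least 2-fold lower and 0 higher, and medians of 0.04 for WT minus competitor and -1.07 for Double_mutant minus WT. With normexp the median of the pair was -0.36. Lck, the kinase of the T cell receptor, was 0.74 in double-mutant and 4.26 in competitor cells, and 4.42 in WT cells. Thy1 was 0.59 in double-mutant and 4.10 in competitor cells, and 3.17 in WT cells. Zap70, which Lck activates, was -4.13 in double-mutant and -1.07 in competitor cells, and -0.75 in WT cells. For these genes the WT and competitor arrays lay together above the double-mutant one. Lef1, a factor of T and B precursors, was dim in double-mutant and -1.50 in competitor cells, but also dim in WT cells. The co-receptor genes Cd3e (0.89) and Cd4 (0.83) lay within 2-fold.

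MHC class II genes, which present antigen, had a median of -1.36, with 6 of 9 at least 2-fold lower and 0 higher. H2-Aa was -1.65 in double-mutant and 2.07 in competitor cells, H2-Eb1 2.37 in double-mutant and 5.23 in competitor cells, and Cd74, the invariant chain, 0.69 in double-mutant and 3.52 in competitor cells. In WT cells these genes were 0.16, 2.80 and 0.80, which places WT nearer to Double_mutant for each. The transactivator gene Ciita was dim on both arrays of the pair. Dendritic cell genes, which overlap the lymphoid lists in Flt3, Ccr9 and Ly6d, had a median of -0.83 (-0.37 with normexp), and 7 of 15 were at least 2-fold lower. Their lowest members were Irf4, a factor of B and dendritic cells, at least 3.65 lower, and the integrin gene Itgax at -3.07.

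RUNX proteins bind the core letters TGTGGT, and promoters of the genes above were searched for them because the mutant factor belongs to that family. The windows were RefSeq promoters of build GRCm38.p6, 250 bases before to 50 after the start of transcription, the first entry per gene, on both strands. The letters stood in 1456 of 11098 promoters of measured genes (13.1%), in 196 of 1135 promoters of genes at least 2-fold higher (17.3%) and in 135 of 1007 of genes at least 2-fold lower (13.4%). Among all 27025 promoters of that table the share was 16.9%. By list, they were in 7 of 16 mast cell, 6 of 17 late neutrophil, 5 of 17 myeloid progenitor, 5 of 12 T and NK cell, 3 of 11 B cell, 2 of 13 lymphoid-primed, 1 of 23 stem cell and 0 of 20 immediate early promoters. For comparison, the C/EBP letters TTGCNNAA were in 978 (8.81%) of the promoters of measured genes, in 161 (14.2%) of those of higher genes and in 82 (8.14%) of those of lower genes. The GATA letters AGATAA were in 815 (7.34%), 115 (10.1%) and 80 (7.94%) of the same 3 sets. Late neutrophil promoters held the C/EBP letters in 7 of 17 and the GATA letters in 5 of 17, and mast cell promoters held the GATA letters in 6 of 16 and the C/EBP letters in 3 of 16. A match describes letters and not binding.

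From each of 5 lists, the member with the largest difference in the direction of its median whose promoter holds the RUNX letters is shown. Members with a match reaching the start site or lying after it were passed over, and so were genes of a single chromosome. The 250 bases before the start of transcription are given, 5′ to 3′ on the strand of the gene. The RUNX letters or their reverse complement ACCACA are in capitals. The genes are Stfa2 (at least 6.18 higher), Mcpt4 (5.39 higher), Ctsg, Rag1 (at least 4.24 lower on the probe kept) and Lck (3.51 lower). Ctsg, the cathepsin G gene, was 10.49 in double-mutant and 8.23 in competitor cells. The letters begin at base -207 in Stfa2, -69 in Mcpt4, -79 in Ctsg, -81 and -67 in Rag1 and -58 in Lck, counted from the start site. No RUNX match in them overlaps a GATA or C/EBP match.
Stfa2 (chr16:36408364-36408613, minus strand): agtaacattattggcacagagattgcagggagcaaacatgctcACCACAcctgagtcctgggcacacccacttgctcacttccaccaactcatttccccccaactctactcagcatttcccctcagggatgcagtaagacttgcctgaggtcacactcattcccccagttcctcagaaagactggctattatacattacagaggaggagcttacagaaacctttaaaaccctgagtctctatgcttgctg
Mcpt4 (chr14:56062311-56062560, minus strand): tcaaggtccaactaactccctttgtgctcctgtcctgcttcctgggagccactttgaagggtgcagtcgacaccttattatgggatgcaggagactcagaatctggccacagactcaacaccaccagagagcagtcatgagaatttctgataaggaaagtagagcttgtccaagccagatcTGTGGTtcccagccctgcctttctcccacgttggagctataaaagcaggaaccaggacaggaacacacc
Ctsg (chr14:56102575-56102824, minus strand): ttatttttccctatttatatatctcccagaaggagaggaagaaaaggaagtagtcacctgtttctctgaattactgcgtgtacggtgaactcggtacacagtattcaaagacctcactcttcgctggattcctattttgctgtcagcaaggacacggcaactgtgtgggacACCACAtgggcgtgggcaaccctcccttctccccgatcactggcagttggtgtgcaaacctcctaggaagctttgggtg
Rag1 (chr2:101649533-101649782, minus strand): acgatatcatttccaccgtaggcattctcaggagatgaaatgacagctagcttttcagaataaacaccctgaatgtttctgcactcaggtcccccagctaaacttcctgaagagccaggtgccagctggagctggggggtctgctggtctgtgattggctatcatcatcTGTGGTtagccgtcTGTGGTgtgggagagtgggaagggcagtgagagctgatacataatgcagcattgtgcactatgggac
Lck (chr4:129573642-129573891, minus strand): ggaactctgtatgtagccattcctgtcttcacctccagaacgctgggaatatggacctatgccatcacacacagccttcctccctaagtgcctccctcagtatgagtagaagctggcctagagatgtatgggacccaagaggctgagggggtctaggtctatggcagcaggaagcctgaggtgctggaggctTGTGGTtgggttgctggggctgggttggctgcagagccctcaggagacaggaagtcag
The letters occur both among genes that were higher and among genes that were lower in double-mutant cells.

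Stem cell genes had a median of -0.79, with 14 of 33 at least 2-fold lower and 2 higher. With normexp the median was -0.47. The medians of this list were -0.07 for WT minus competitor and -0.74 for Double_mutant minus WT. The mean level was 1.08 in Double_mutant, 1.80 in WT and 2.04 in CD45.1_in_double_mutant, but 0.06 in CD45.1_in_RUNX1_mutant. Double_mutant thus lay below 2 of the 3 wild-type arrays and above the third. Of the 33 genes, 8 were below all 3 wild-type arrays in Double_mutant and 3 above all 3. Prdm16, a regulator of stem cell maintenance, was dim in double-mutant and -0.46 in competitor cells, hence at least 4.09 lower, and -0.66 in WT cells. Neo1, the neogenin receptor, was dim in double-mutant and -1.63 in competitor cells, hence at least 3.09 lower. The interferon-inducible membrane gene Ifitm1 was 5.03 in double-mutant and 7.69 in competitor cells, and Eya2, a transcriptional co-activator, 1.76 in double-mutant and 3.89 in competitor cells. The sulfotransferase gene Sult1a1 was 1.40 in double-mutant and 0.23 in competitor cells.

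Hox genes, the homeobox factors that sustain self-renewal in early blood cells, had a median of -0.88, which was -0.19 with normexp and -1.53 with measured values in place of bounds. Of 39 with a probe 19 were measured, 9 of them at least 2-fold lower and 1 higher, and the other 20 were dim on both arrays, among them all 9 of the Hoxd cluster. Hoxa10 was -4.31 in double-mutant and -1.33 in competitor cells, Hoxb2 -1.69 in double-mutant and 1.15 in competitor cells, and Hoxa9 -2.26 in double-mutant and -0.10 in competitor cells. Hoxc6 was at least 2.59 lower. In WT cells Hoxa10, Hoxb2 and Hoxa9 were -0.59, 1.30 and -0.47, near the competitor levels. In CD45.1_in_RUNX1_mutant cells they were -2.24, 0.21 and -0.75. The mean level of the list was -2.80 in Double_mutant, -1.68 in WT and -1.41 in CD45.1_in_double_mutant, but -2.66 in CD45.1_in_RUNX1_mutant. Of the 19 genes, 8 were below all 3 wild-type arrays in Double_mutant and 3 above all 3. Hoxb3 had probes at 0.75 and -2.04 and is uncertain. Of the TALE cofactors that bind DNA with Hox proteins, Meis1 was 4.55 in double-mutant and 5.56 in competitor cells and Tgif2 -3.44 in double-mutant and -0.56 in competitor cells, and 6 of 9 lay within 2-fold.

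Subunits and partners of PRC2 lay close together, with a median of 0.03 and 0 of 13 genes 2-fold apart on the probe kept. Jarid2, which guides PRC2 to its targets, was 2.16 in double-mutant and 1.39 in competitor cells, the largest difference among them. At the other end, the cofactor gene Aebp2 was 1.30 in double-mutant and 1.88 in competitor cells. The core genes Suz12 (0.14), Eed (-0.14), Rbbp4 (0.26) and Rbbp7 (-0.09) and the second methyltransferase gene Ezh1 (0.05) stood between them. So did the accessory genes Mtf2 (0.23), Phf19 (0.07), Lcor (0.03), Epop (-0.39) and Phf1 (-0.51). The other measured probe of Phf1 gave -1.65. PRC1 genes had a median of -0.28, with 15 of 20 within 2-fold. Bmi1, a PRC1 subunit needed by stem cells, was 3.98 in double-mutant and 2.53 in competitor cells, while Cbx2 and Pcgf6 were -0.56 and -0.25 in double-mutant cells and 1.06 and 1.32 in competitor cells. Of 40 developmental regulators known as Polycomb targets in other cells, 31 were dim on both arrays, and of the 9 measured 1 was at least 2-fold higher and 2 lower.

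Oncofetal genes, active in fetal rather than adult blood cells, had a median of 1.49, with 4 of 7 at least 2-fold higher. Igf2bp3, which binds RNA and is mainly fetal, was -0.08 in double-mutant cells and dim in competitor cells, hence at least 5.02 higher. Lin28a was 1.20 in double-mutant and -0.83 in competitor cells, Arid3a 3.31 in double-mutant and 1.81 in competitor cells, and Hmga2, a chromatin protein, 1.13 in double-mutant and -0.36 in competitor cells. Igf2bp2 was -2.01 in double-mutant and -1.17 in competitor cells. WT cells stood with the competitor cells for this list, whose median was 0.12 for WT minus competitor. Imprinted genes had a median of -0.70 (-0.34 with normexp), with 6 of 15 at least 2-fold lower. The noncoding RNA gene Meg3 was -4.22 in double-mutant and -1.07 in competitor cells but dim in WT cells, and the receptor gene Igf2r was -3.05 in double-mutant, -0.26 in competitor and -0.47 in WT cells.

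Of the inhibitors of cyclin-dependent kinases, Cdkn2a, a locus that Polycomb complexes silence, was -0.92 in double-mutant and -3.00 in competitor cells, or 4.21-fold higher, and dim in WT cells. Cdkn3 was 3.17 in double-mutant and 1.47 in competitor cells, and Cdkn2c 3.25 in double-mutant and 1.64 in competitor cells. Cdkn1c was -0.66 in double-mutant and 0.74 in competitor cells. Cdkn1a, a p53 target, was 1.68 in double-mutant, 3.61 in competitor and 1.69 in WT cells. Cdkn1b (-0.07) and Cdkn2d (-0.09) were close to equal, and Cdkn2b was dim on both arrays.

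DNA replication genes had a median of -0.06, with 0 of 24 apart by 2-fold, and mitosis genes a median of 0.44, with 1 of 22 at least 2-fold higher and 18 above 0. For mitosis genes the median was -0.60 for WT minus competitor and 0.95 for Double_mutant minus WT, with 10 of 22 at least 2-fold higher in the second of these pairs. Aurkb, a mitotic kinase, was -1.12 in double-mutant and -2.83 in competitor cells, and Kif20a (0.82), Ccnb2 (0.75) and Ccnb1 (0.68) lay within 2-fold. Replication histone genes had a median of 0.86 and 6 of 13 at least 2-fold higher, led by the linker histone genes H1f4 (1.86) and H1f5 (1.68). Genes of oxidative phosphorylation had a median of 0.69, and 6 of 21 were at least 2-fold higher, among them Cox5b (1.32), Ndufa4 (1.19) and Cox7a2 (1.14). All 30 ribosomal protein genes were positive with a median of 0.48, which became -0.07 after quantile normalization. In that list Rps4l was 1.43 in double-mutant and -3.51 in competitor cells, with 2.15 in WT, 0.08 in CD45.1_in_RUNX1_mutant and -2.19 in RUNX1_mutant cells.

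Immediate early genes, transcribed within minutes of a stimulus, had a median of -2.07, with 18 of 24 at least 2-fold lower and 0 higher. Klf4 was 1.69 in double-mutant, 5.38 in competitor and 2.69 in WT cells. Atf3 was 1.34 in double-mutant, 5.01 in competitor and 2.09 in WT cells. Fosb was 3.83 in double-mutant, 7.01 in competitor and 4.91 in WT cells. For these genes the competitor level stood above the double-mutant and WT levels. On slide 1 the mean level of the list was 2.44 in Double_mutant, 2.93 in WT and 5.09 in Double_MDS. On slide 2 it was 4.46 in CD45.1_in_double_mutant, 5.16 in RUNX1_mutant, 3.92 in Ezh2_deleted and 3.58 in CD45.1_in_RUNX1_mutant. Double_MDS_ML, on slide 3, had 3.05. The list median was -1.52 for WT minus competitor, with 18 of 24 at least 2-fold lower, and -0.70 for Double_mutant minus WT.

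In the heat shock genes with the largest differences the competitor level also stood above the double-mutant and WT levels. Hspa1a, the inducible HSP70, was -3.07 in double-mutant, 4.04 in competitor and -2.91 in WT cells, and Hspb1 was -2.81 in double-mutant, 3.23 in competitor and -3.01 in WT cells. The pair thus differed by -7.11 and -6.05 in genes for which WT differed from the competitor by -6.95 and -6.24. Of the other members, the co-chaperone gene Dnajb1 (-1.84) and Hsph1 (-1.50) were lower, 10 of 14 lay within 2-fold, and the list median was -0.34, or -0.65 after quantile normalization. Hspa8 had probes at 0.68 and -2.24. Whether cell handling or the slide contributes to the immediate early and heat shock levels was not tested.

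NF-kappaB and inflammatory genes had a median of -0.81, with 9 of 21 at least 2-fold lower and 2 higher. Ptgs2, which makes prostaglandins, was -2.81 in double-mutant and 0.49 in competitor cells, the cytokine gene Tnf -1.60 in double-mutant and 1.48 in competitor cells, and the adhesion molecule gene Icam1 -2.68 in double-mutant and -0.26 in competitor cells. Il6 and Il1b were -2.90 and -0.63 in double-mutant cells and -5.10 and -1.73 in competitor cells. Interferon-stimulated genes had a median of -0.51 with 7 of 28 at least 2-fold lower, and medians of 0.32 for WT minus competitor and -0.91 for Double_mutant minus WT. Oas2, a sensor of viral RNA, was -0.18 in double-mutant, 2.40 in competitor and 2.73 in WT cells, and Rtp4 was 1.31 in double-mutant, 3.53 in competitor and 4.35 in WT cells. Irf7, the factor that amplifies the response, was -1.95 in double-mutant, -0.24 in competitor and 0.07 in WT cells.

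Genes of the unfolded protein response, which raises folding capacity in the endoplasmic reticulum, split in both directions around a median of 0.34, or 0.15 after quantile normalization. Sdf2l1 (1.62), the chaperone gene Calr (1.40), Asns (1.33) and the factor gene Xbp1 (1.11) were higher, while Trib3 (-1.60) and Ddit3 (-1.59) were lower. Against WT on the same slide, 13 of 22 were at least 2-fold higher and the median was 1.18.

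**Figure D3:**
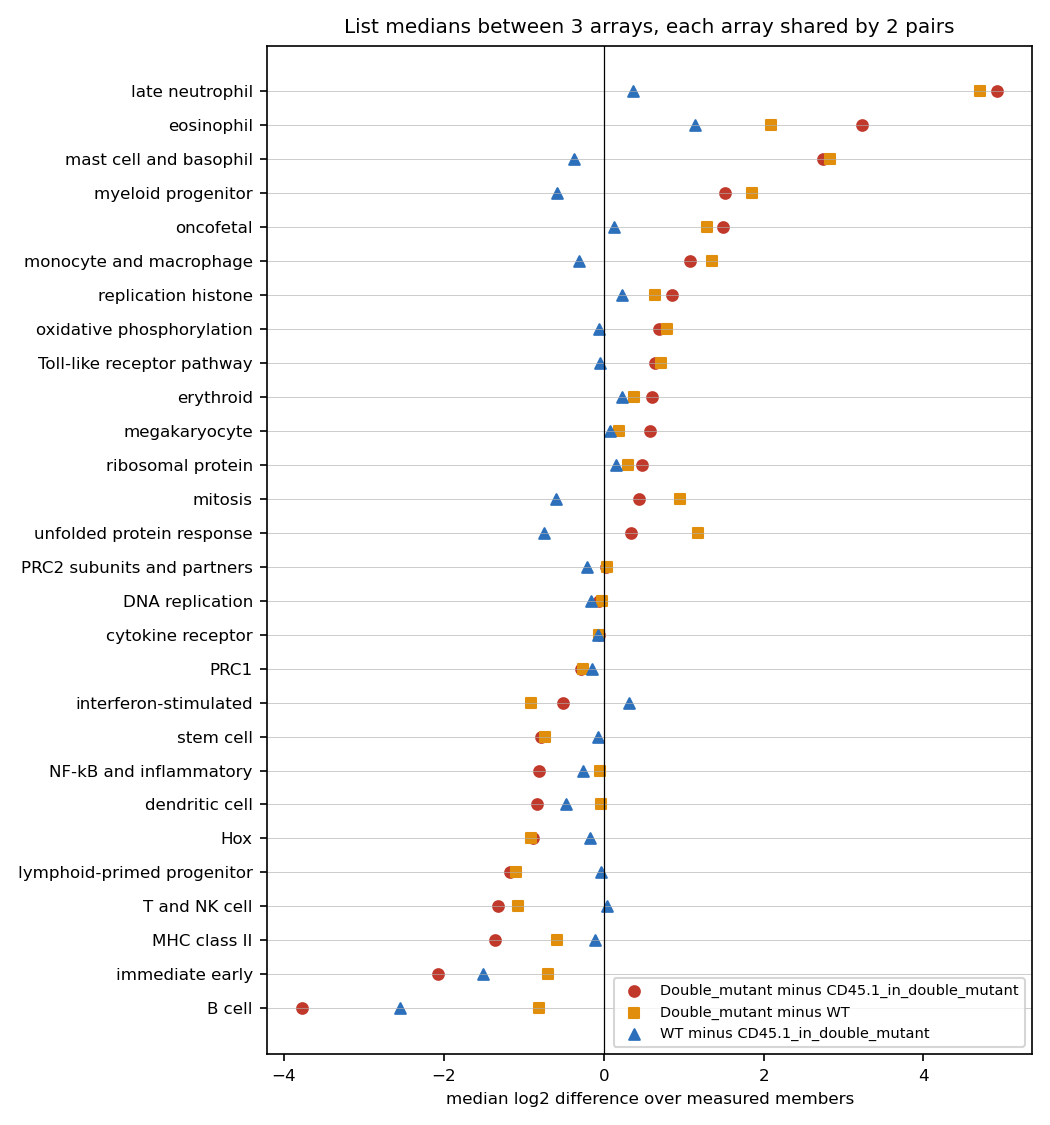
Median log2 difference over measured members of 28 gene lists for Double_mutant minus CD45.1_in_double_mutant (red circles), Double_mutant minus WT (orange squares) and WT minus CD45.1_in_double_mutant (blue triangles). Late neutrophil, mast cell, lymphoid-primed and Hox genes have their red and orange marks together and the blue mark between -0.37 and 0.36, whereas for B cell and immediate early genes the blue mark, at -2.54 and -1.52, lies with the red.

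Cytokine receptor genes lay in both directions, with 7 of 29 at least 2-fold higher and 9 lower around a median of -0.06. Among the higher receptors, after Il1rl1 (4.58) came the interferon-gamma receptor gene Ifngr1 at 6.90 in double-mutant and 4.63 in competitor cells, and Csf1r, the receptor of the monocyte factor CSF-1, at 6.13 in double-mutant and 4.25 in competitor cells. The GM-CSF receptor genes Csf2ra (1.25), Csf2rb (1.22) and Csf2rb2 (1.04) and the receptor gene Lifr (1.05) completed the higher set.

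Of the lower receptors, Il18r1, for interleukin-18, was -3.18 in double-mutant and 0.38 in competitor cells, and Il7r, for the lymphoid growth factor interleukin-7, -2.68 in double-mutant and 0.04 in competitor cells. Flt3 was 3.23 in double-mutant and 5.75 in competitor cells. In WT cells these were 0.56, -0.03 and 5.71, close to the competitor levels. The other lower receptors were Ccr9 (-2.85), Il12rb1 (-1.79), Il18rap (-1.61), the shared chain gene Il2rg (-1.29), Il1r1 (-1.28) and Tek (-1.16). The remaining 13 lay within 2-fold, among them Il6ra at 0.74, Csf3r at 0.52, Il3ra at 0.25, Ccr2 at 0.61, Tgfbr1 at 0.46, Il10ra at 0.16, Il6st at 0.07, Ifnar1 at -0.06, Cxcr4 at -0.10, Epor at -0.22, Kit at -0.27 and Tgfbr2 at -0.33.

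In the remaining signalling lists single members stood out. The inhibitor of E proteins Id3 was -2.14 in double-mutant, 2.20 in competitor and -1.62 in WT cells, while Id2 was 2.50 in double-mutant, 0.66 in competitor and 0.22 in WT cells. Rnf43, a brake on Wnt receptors, was 0.35 in double-mutant and -3.39 in competitor cells, and Hey1, a Notch target, was dim in double-mutant and -0.44 in competitor cells, or at least 19.4-fold lower. In TGF-beta and BMP signalling, the co-receptor gene Tgfbr3 was -0.92 in double-mutant and 1.62 in competitor cells, Tgfb3 was -3.78 in double-mutant and -1.45 in competitor cells, and 6 of 19 genes were at least 2-fold lower against 1 higher. Of p53 targets 14 of 20 lay within 2-fold, with the death receptor gene Fas at 0.28 in double-mutant and -3.22 in competitor cells and Gdf15 at -1.24 in double-mutant and 1.53 in competitor cells. Of genes against oxidants and foreign compounds, Gstm1, a glutathione transferase, was 7.37 in double-mutant and 4.49 in competitor cells, whereas Aldh1a1, a retinaldehyde dehydrogenase, was 0.72 in double-mutant and 2.52 in competitor cells. None of these lists had a median beyond 0.70 in size.

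Ordered by size alone, the highest genes outside the lists were Mogat2, an acyltransferase of triglyceride synthesis, C4b, a complement component, Lrg1, a glycoprotein of neutrophils, and Hsd11b1, which regenerates active glucocorticoid. Mogat2 was 4.36 in double-mutant and -3.06 in competitor cells, and -0.64 or less on every other array. Hsd11b1 was 4.30 in double-mutant and -1.63 in competitor cells, and 0.68 or less on every other array. C4b was 5.71 in double-mutant and -1.06 in competitor cells, but also 4.07 in RUNX1_mutant and 4.78 in Double_MDS_ML cells. Lrg1 was 5.48 in double-mutant and -1.28 in competitor cells. Of genes dim in competitor cells, the iron exporter gene Slc40a1 was at least 5.97 higher, Gpx3, a secreted glutathione peroxidase, at least 5.96, the lipase inhibitor gene G0s2 at least 5.92 and the stefin-related gene Cstdc5 at least 6.20. Gpx3 was well above background on the double-mutant array alone of the 8.

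At the other end were Cyp26b1, which degrades retinoic acid, Gfra2, a receptor of GDNF family ligands, Nsg1, the peptide transporter gene Slc15a2, Islr, Tceal3 and Hnf4a, a nuclear receptor. Slc15a2 was -3.43 in double-mutant, 1.05 in competitor and 0.47 in WT cells. Hnf4a was -2.34 in double-mutant, 2.01 in competitor and 1.92 in WT cells, and Nsg1 was -3.70 in double-mutant, 0.80 in competitor and 0.40 in WT cells. For these genes both wild-type arrays lay above the double-mutant one. Cyp26b1 and Gfra2 were instead high on the competitor array, at 0.62 and 1.16, against -4.08 and -3.43 in double-mutant cells and -3.17 and -3.19 in WT cells. Dim in double-mutant cells were Evc2, a ciliary protein (at least 58.4-fold lower), the early response factor gene Egr4 (at least 34.3-fold), Lrrc66 (at least 31.1-fold), Tdrd5 (at least 23.0-fold), the ubiquitin hydrolase gene Uchl1 (at least 21.4-fold) and Foxo6 (at least 21.0-fold). Lrrc66 was -4.84 as measured in double-mutant cells and 0.29 in WT cells.

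**Figure D4:**
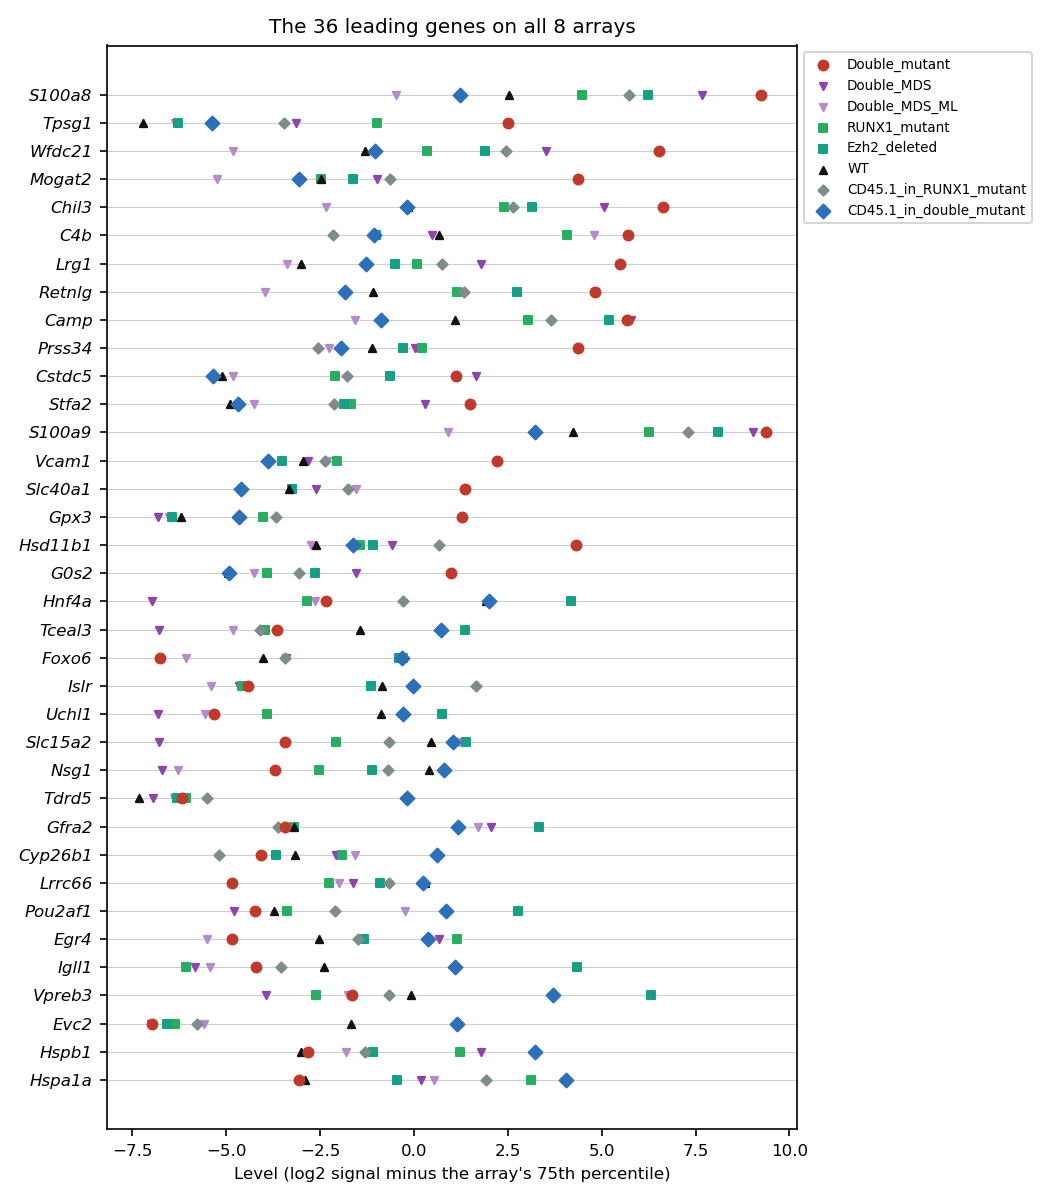
Levels (log2 signal, 75th percentile of each array at 0) of the 36 leading genes on all 8 arrays, from the largest difference higher in double-mutant cells at the top to the largest lower at the bottom. Vcam1, Mogat2 and Gpx3 are high on the Double_mutant array (red circles) alone, while Hspa1a and Hspb1 are highest on the CD45.1_in_double_mutant array (blue diamonds) and as low on WT (black triangles) as on Double_mutant.

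A test was possible where arrays of all groups shared 1 estimate of the spread. The double-mutant array was set against the mean of the 3 wild-type arrays (WT and both CD45.1 arrays) in limma, with the spread taken from these and from the 2 moribund arrays, and the lone double-mutant array was assumed to vary like them. With Benjamini-Hochberg adjustment 0 of 13547 genes passed (0%), 935 having an unadjusted p under 0.05. With normexp background correction 6 passed in limma: Prss34, Alox5, Ltb4r1, Tpsb2 and Vcam1 were higher and Epb41l3 was lower, with adjusted p between 0.0360 and 0.0474. Alox5, the enzyme that starts leukotriene synthesis, was 2.66 in Double_mutant, -1.73 in WT, -0.93 in CD45.1_in_RUNX1_mutant and -1.46 in CD45.1_in_double_mutant. Its effect was 4.03, SE 0.44, with adjusted p = 0.148 in limma. Vcam1 had an effect of 5.29, SE 0.63, and Tpsb2 4.67, SE 0.56, each with adjusted p = 0.148 in limma. Over 12 alternatives the adjusted p in limma ran between 0.0360 and 0.525 for Alox5 and Tpsb2 and between 0.0360 and 0.563 for Vcam1.

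The other genes of smallest p were Tmprss4, a membrane serine protease, Lrrc66, Plekha7, Adamts17 and 1500009L16Rik, which were lower, and Rhcg, an ammonia transporter, and Polm, a DNA polymerase of end joining, which were higher. Tmprss4 was dim in Double_mutant and -1.51, -1.91 and -2.14 in WT, CD45.1_in_RUNX1_mutant and CD45.1_in_double_mutant. Its fitted effect of -5.13, SE 0.43, rests on that dim value. Lrrc66, Plekha7, Adamts17 and 1500009L16Rik were also dim in Double_mutant, and their fitted effects rest on dim values too. Rhcg was -0.43 in Double_mutant and -4.11, -3.78 and -4.10 in the same 3 wild-type groups. In limma each of these 7 had adjusted p = 0.148, and over their alternatives it ran between 0.0769 for Polm and 0.9998 for Plekha7. For the neutrophil genes the spread between wild-type arrays was wide: S100a8 was 2.54, 5.72 and 1.23 in WT, CD45.1_in_RUNX1_mutant and CD45.1_in_double_mutant, and its effect was 6.07, SE 3.08, with adjusted p = 0.880 in limma.

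In the other marrow, RUNX1_mutant cells were set against their own competitors, CD45.1_in_RUNX1_mutant, a pair on slide 2 with no array in common with the first. There 1132 of 12948 genes (8.74%) were at least 2-fold higher and 1597 (12.3%) lower, and that competitor array was the dimmest of the series, with 43.9% of probes well above background. Mast cell genes were higher in both marrows, with medians of 2.74 for Double_mutant and 1.63 for RUNX1_mutant over their competitors, and B cell genes lower in both, with -3.77 and -1.29. T and NK cell genes had medians of -1.32 for Double_mutant and -1.28 for RUNX1_mutant. Late neutrophil genes had medians of 4.92 for Double_mutant and -0.62 for RUNX1_mutant, and stem cell genes -0.79 for Double_mutant and 1.50 for RUNX1_mutant. Megakaryocyte genes were 0.58 for Double_mutant and 2.67 for RUNX1_mutant. The difference between the marrows was not tested, as each pair holds 1 array a group.

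**Figure D5:**
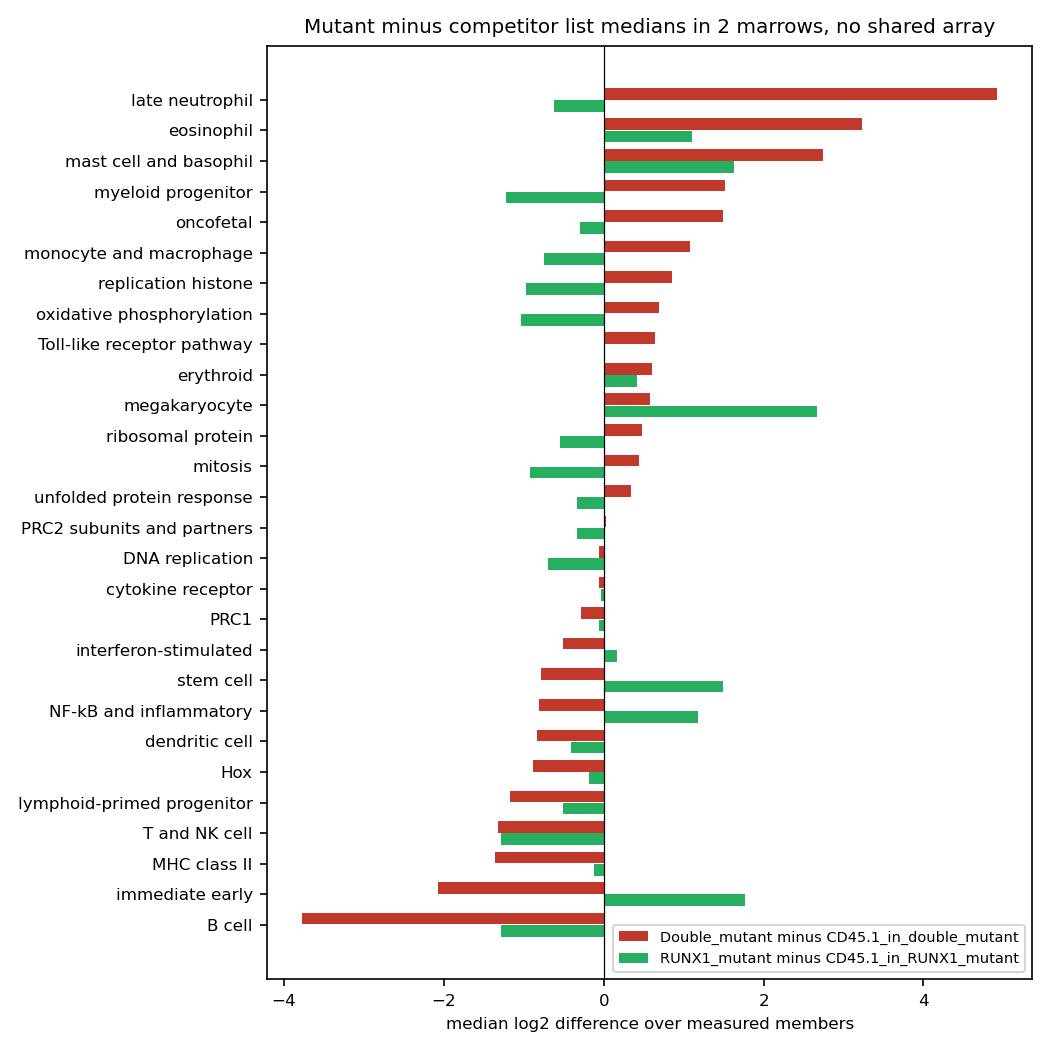
Median log2 difference over measured members of 28 gene lists for mutant minus competitor cells of the same marrow, Double_mutant minus CD45.1_in_double_mutant (red bars) and RUNX1_mutant minus CD45.1_in_RUNX1_mutant (green bars). Mast cell, B cell and T and NK cell bars point the same way, while late neutrophil (4.92 and -0.62), stem cell (-0.79 and 1.50) and immediate early bars (-2.07 and 1.76) point opposite ways.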

How the data were processed

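RNA of sorted LSK cells was measured on 8 one-colour Agilent arrays. Sorting used a FACSAriaII, per the labels' protocols, and 20 ng of total RNA was amplified and labelled with Cy3. Per the file headers, Feature Extraction 10.7.1.1 gave each spot a processed intensity with background removed and no scaling between arrays, and median spot and background intensity. The deposited series table holds linear signal, which set against the scanner values was the processed signal over 1 factor per array (100% of probes within 0.01 log2). All its sample columns were used.

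Of 55681 probes, 27235 matched 20660 genes through transcript accessions of RefSeq assembly GRCm38.p6, used for names and promoters. For 5476 genes with several probes the one with the highest mean was kept, and 17 of 3605 genes with several measured probes had probes at least 2-fold apart in both directions. Percent of probes well above background was 52.1 on Double_mutant and 49.9 on CD45.1_in_double_mutant, and 0 spots were saturated. Arrays carry no count depth, so their number limits the precision.

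limma 3.58.1 in R 4.3.3 tested 13547 genes (3 or more of 8 arrays well above background), at an adjusted p of 0.05. On simulated levels of 13547 genes through this fit, 20% of genes changed by 2 log2 units, 64% by 4 and 92% by 6 were called. Of 13347 unchanged genes 9 were called. The changed genes were drawn at random, so these shares do not hold for genes of wide spread, such as S100a8 with SE 3.08. P-values rest on the spread within the 3 wild-type and within the 2 moribund arrays, of which only WT is labelled a pool. That spread includes differences of donor strain, virus, slide and disease. Xist was 2.76 in Double_MDS and -5.95 in Double_MDS_ML, so the spread may include a difference of sex as well. Normexp (offset 50) used the median spot intensity, as the files hold no mean. Named genes were the 12 highest and 12 lowest measured on both arrays, the 6 largest bounds on either side, up to 4 members of a list with its median and 2 against it, the label genes, the 10 smallest p in limma, and all PRC2, CDK inhibitor, sort, sex-linked and cytokine receptor genes. Symbols without a function name were left out of the first 2 sets. Ctsg, Runx3, Cma1, Ltb4r1, Epb41l3, the S100a8 limma values and the dim genes Ms4a1, Pax5, Ciita, Cxcl12 and Cdh5 were named after their values were seen. The arrays, the naming rule and the 44 lists, which hold 827 genes of which 804 had a probe, were chosen with earlier results of these data known. The alternatives were other background corrections, scalings, filters and probe rules, and arrays left out. Some members that the naming rule takes are not reported here.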

Additional observations from a re-analysis of the deposited data

Results flagged for a closer look

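Some lists had medians of opposite sign, each at least 0.5 in size, in the 2 pairs of mutant and competitor cells that share no array, and this difference was not tested. Late neutrophil genes were 4.92 for Double_mutant minus its competitor and -0.62 for RUNX1_mutant minus its competitor. Myeloid progenitor genes were 1.52 and -1.22 in the same order of pairs, and monocyte and macrophage genes 1.07 and -0.75. Replication histone genes were 0.86 and -0.97, and oxidative phosphorylation genes 0.69 and -1.03. In the other direction, stem cell genes were -0.79 and 1.50, immediate early genes -2.07 and 1.76, NF-kappaB and inflammatory genes -0.81 and 1.18, and imprinted genes -0.70 and 0.62. The competitor arrays of the 2 marrows themselves differed: the mean level of late neutrophil genes was 0.81 in CD45.1_in_RUNX1_mutant and -1.64 in CD45.1_in_double_mutant, and of stem cell genes 0.06 and 2.04. The first of these arrays had the lowest 75th percentile of signal, 185.7, against 428.8 for the second.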

How the results depend on the processing

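The pair has no replicate, and slide and group coincide in it. With normexp the counts were 825 higher and 717 lower, and the medians were -1.98 for B cell, -0.36 for T and NK cell, 1.82 for mast cell, 0.31 for erythroid, -0.37 for dendritic cell, -0.19 for Hox and 0.46 for Toll-like receptor genes. With the 75th percentile over probes well above background on both arrays, Toll-like receptor genes were 0.57. Quantile normalization shifted the median of all genes by -0.10 and gave -0.79 for sort marker, -1.35 for lymphoid-primed, -0.33 for DNA replication, -0.42 for PRC1, -0.72 for RUNX and CBF, 0.58 for Toll-like receptor, 0.0151 for glycolysis and -0.0658 for ribosomal protein genes. Cyclic loess gave -1.28 for lymphoid-primed, -1.04 for dendritic cell and 0.0105 for glycolysis genes. With genes well above background on both arrays, erythroid genes were 0.31 and oncofetal genes 1.11. With the mean of the probes of a gene, sort marker genes were -0.73, T and NK cell -1.03, TALE cofactor -0.67, oncofetal 1.82, Toll-like receptor 0.50 and sex-linked genes 0.21. The cause was not tested. The other 325 list medians moved by less than the SD of the list between the 3 wild-type arrays. For some lists that SD was larger than the median itself, as for stem cell (1.48), megakaryocyte (1.61) and imprinted genes (1.12). A fall of such a median to 0 would not have counted as a move, so the criterion says little about those lists. None of the 36 leading genes changed sign or came within 2-fold in the 276 values that the 8 alternatives for the pair gave. The 12 of them dim on 1 array have no value where both arrays must be well above background. In limma, normexp gave 6 genes, and 0 passed under the other 11 alternatives, among them slide as a block and each wild-type or moribund array left out (0 to 0 genes, 619 to 1372 with an unadjusted p under 0.05). No paired analysis was possible because each group has 1 array.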

Other observations

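Probes without a gene name were also apart. Of 28446 such probes 12229 were well above background on at least 1 array of the pair, 1640 (13.4%) of them at least 2-fold higher in double-mutant cells and 891 (7.29%) at least 2-fold lower.

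Of 15 markers of stroma and endothelium, 10 were well above background on the double-mutant array and 8 on the competitor array, and 5 were dim on both, among them the chemokine gene Cxcl12 and the endothelial cadherin gene Cdh5. Of the 10 measured, Acta2, a smooth muscle actin, was at least 2.98 higher and the collagen gene Col1a1 at least 2.45 higher in double-mutant cells, and the leptin receptor gene Lepr was 2.84 in double-mutant and 1.08 in competitor cells. Pecam1 was -1.46 in double-mutant and -0.20 in competitor cells, and the collagen gene Col1a2 -1.72 in double-mutant and -1.12 in competitor cells. The list median was 0.22, with 5 genes above 0 and 5 below. Apoptosis genes of the BCL2 family had a median of 0.42, with Bmf at 0.21 in double-mutant and -1.70 in competitor cells and Bok at -1.11 in double-mutant and 1.27 in competitor cells. Glycolysis and hypoxia genes had a median of 0.10, with Eno1 (1.22) and Slc2a3 (1.13) higher and 23 of 25 within 2-fold. RUNX and CBF genes had a median of -0.42, with Cbfb at 5.75 in double-mutant and 6.17 in competitor cells and Runx3 at 1.97 in double-mutant and 1.99 in competitor cells.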
